A study of Mus musculus with 21 samples.

Results

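The open chromatin of a cultured mouse medulloblastoma line was set against that of the cells from which this tumor arises. On the line's side were the 3 libraries of VDR cells that received a control siRNA (siNC), and on the other the 3 libraries of granule neuron progenitors (GNP), 6 of the 21 libraries in the series. The members were chosen by label, as the 3 libraries of each group, and from each library the 100000 summits with the highest score were used.

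The GNP were EGFP-positive cells sorted at postnatal day 7 from cerebella of Atoh1EGFP mice after a percoll gradient, and their titles read Ptch1GNP. Their genotype is not given beyond that title. VDR is labelled as a medulloblastoma cell line of the mouse, and the labels give no age, origin or clone for it. The siNC cells carry the label siNC and no other agent, and the names of their deposited lists begin with sh rather than si, so the kind of reagent is uncertain. Other libraries of the series, 3 each of hyperplasia at postnatal day 28, tumor, untreated VDR, siNfia-treated VDR and siNfib-treated VDR, were only looked up for the regions defined here. The hyperplasia and tumor cells were EGFP-positive sorted cells as well, and no age is given for the tumors. Nothing in the labels says that replicates came from separate animals or cultures, so a p-value here measures only the spread between libraries, which may be technical.

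Omni-ATAC uses a transposase that inserts sequencing adapters where DNA is accessible, so that a peak of insertions marks an open promoter or enhancer, and the summit is the highest point of a peak. Granule neuron progenitors divide in the outer layer of the postnatal cerebellum under the signal Sonic hedgehog, express the bHLH factor Atoh1, and then leave the cell cycle, extend axons and become granule neurons. When the receptor Ptch1 no longer restrains the pathway, Smo stays active, the Gli factors drive their targets, and the progenitors can give rise to medulloblastoma.

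The libraries held between 192817 and 259276 summits. Read depth is unknown. The score of the summit at rank 100000 was 16.1, 28.9 and 15.3 in the 3 GNP libraries and 4.95, 5.96 and 9.61 in the siNC libraries, so equal numbers of summits reach weaker peaks in siNC. Kept summits of all 21 libraries were merged into 270959 windows of 500 bp, called regions, of which 119206 held a summit of at least 1 of the 6 libraries. A region was occupied in a library when a kept summit lay inside it. An empty region is thus a statement about rank, not proof of closed chromatin, and a change in the share of cells that open a region cannot be told apart from a change in how open it is in each cell.

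The promoters below show where the line kept, lost and gained openness at genes that the results turn on. Each is the stretch from 250 bases before to 50 after the gene start, 5′ to 3′ on the gene's strand, from RefSeq (GRCm38.p6, the mm10 assembly). They lie at chr13:58806319-58806618 (plus strand) for Ntrk2, chr3:141465314-141465613 (plus) for Unc5c, chr13:15463473-15463772 (plus) for Gli3, chr6:64728875-64729174 (plus) for Atoh1, chr1:119053570-119053869 (minus) for Gli2 and chr17:56757499-56757798 (minus) for Nrtn. Ntrk2, Unc5c and Gli3 had lost promoters, Atoh1 and Gli2 kept ones, and Nrtn the gained promoter with the best mean rank in siNC. Capitals mark GGGCGG, the core of the site bound by SP and KLF factors, searched on both strands and written as CCGCCC where it lies on the other strand.
Ntrk2 promoter: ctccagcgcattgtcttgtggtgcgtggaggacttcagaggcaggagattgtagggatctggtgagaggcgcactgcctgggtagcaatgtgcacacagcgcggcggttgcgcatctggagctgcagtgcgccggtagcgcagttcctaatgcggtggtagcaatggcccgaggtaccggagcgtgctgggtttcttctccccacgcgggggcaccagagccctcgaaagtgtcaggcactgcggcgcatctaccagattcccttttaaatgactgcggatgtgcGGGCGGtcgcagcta
Unc5c promoter: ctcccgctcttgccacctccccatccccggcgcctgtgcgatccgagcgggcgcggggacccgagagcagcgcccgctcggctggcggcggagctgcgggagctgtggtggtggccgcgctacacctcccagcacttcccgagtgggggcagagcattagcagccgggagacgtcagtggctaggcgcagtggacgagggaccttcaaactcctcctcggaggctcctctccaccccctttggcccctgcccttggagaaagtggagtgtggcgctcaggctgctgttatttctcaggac
Gli3 promoter: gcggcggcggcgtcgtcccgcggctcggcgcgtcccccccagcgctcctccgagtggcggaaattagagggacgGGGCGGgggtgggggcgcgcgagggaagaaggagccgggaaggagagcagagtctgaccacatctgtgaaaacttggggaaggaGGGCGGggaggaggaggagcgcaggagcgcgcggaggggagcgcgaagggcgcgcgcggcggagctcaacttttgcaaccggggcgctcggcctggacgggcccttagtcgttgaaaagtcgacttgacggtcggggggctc
Atoh1 promoter: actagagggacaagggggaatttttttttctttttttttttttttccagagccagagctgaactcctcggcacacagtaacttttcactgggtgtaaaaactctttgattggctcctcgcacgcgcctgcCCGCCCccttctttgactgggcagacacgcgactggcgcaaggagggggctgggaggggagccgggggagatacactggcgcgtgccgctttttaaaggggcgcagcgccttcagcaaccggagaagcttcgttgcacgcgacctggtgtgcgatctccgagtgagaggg
Gli2 promoter: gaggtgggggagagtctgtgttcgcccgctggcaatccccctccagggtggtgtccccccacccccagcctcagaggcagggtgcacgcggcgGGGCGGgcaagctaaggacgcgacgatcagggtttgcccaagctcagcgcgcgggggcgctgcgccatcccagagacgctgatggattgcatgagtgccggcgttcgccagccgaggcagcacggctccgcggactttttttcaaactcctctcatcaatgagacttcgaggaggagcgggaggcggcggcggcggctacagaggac
Nrtn promoter: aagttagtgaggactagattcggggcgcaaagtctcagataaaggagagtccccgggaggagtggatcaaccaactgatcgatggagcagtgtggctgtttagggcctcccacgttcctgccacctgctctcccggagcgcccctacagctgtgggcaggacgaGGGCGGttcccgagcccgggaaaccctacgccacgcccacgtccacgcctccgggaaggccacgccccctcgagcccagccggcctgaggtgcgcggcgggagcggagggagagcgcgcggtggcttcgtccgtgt

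These 6 windows ranged from 56.7% to 71.0% in GC content. They held GGGCGG 1 time in Ntrk2, 0 times in Unc5c, 2 times in Gli3 and 1 time each in Atoh1, Gli2 and Nrtn. Of all 21237 promoter windows in the table, 46.2% held it, so its presence does not set these genes apart. The best summit within 500 bp of the Ntrk2 start ranked 11818, 13629 and 11335 in the GNP libraries, and no siNC library kept a summit there. The Unc5c promoter was among the strongest peaks of the progenitors, at ranks 2431, 941 and 1231, and was empty in siNC down to the end of the whole lists. At Gli3 the ranks in GNP were 37732, 42040 and 18214, again with no summit in any siNC list. The lost promoters shown thus ranged from middling to very strong peaks of the progenitors. Atoh1 went the other way in rank, from 4758, 3333 and 2033 in GNP to 918, 1366 and 684 in siNC. The Gli2 promoter likewise stood at 4812, 4965 and 4102 in GNP and at 976, 1111 and 828 in siNC. Nrtn, which encodes the growth factor neurturin, had its best siNC summits at ranks 12334, 9694 and 4510, while in GNP the promoter appeared only beyond the 100000 summits used, at 121974, 103231 and 107278.

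The line kept most of the progenitors' shared open chromatin and lost a smaller but large part of it. Of 59572 regions occupied in all 3 GNP libraries, 33837 were also occupied in all 3 siNC libraries and are called kept, which is 56.8%. In 14656 regions, or 24.6%, no siNC library had a kept summit, and these are called lost. Another 4504 were occupied in 1 siNC library and 6575 in 2. The reverse, 0 of 3 GNP and 3 of 3 siNC, held for 6313 gained regions, 5.3% of those occupied in the 6 libraries. Of the lost regions 8749 (59.7%) held no summit in the whole siNC lists either, and of the gained regions 1257 (19.9%) held none in the whole GNP lists. Whole lists differ in length and score, and those of siNC replicates 1, 2 and 3 held a summit in 12.2%, 22.7% and 29.5% of the lost regions, so absence from them is not complete loss. The shares also depend on the setting. With whole lists 47.1% of the shared regions were kept, and with 1 summit per peak 44.1%. At a score of at least 10 fewer were kept (32.4%) than lost (37.0%).

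Taken library by library, siNC replicates 1, 2 and 3 occupied 63.7%, 67.1% and 69.2% of the shared GNP regions, and 72.7%, 78.8% and 81.7% when their whole lists were read. Replicate 1 had the lowest value and also the lowest score at rank 100000. The 3 tumor libraries occupied 83.8% to 86.8% of the same regions, so no siNC library reached the lowest tumor library. Pairs of GNP libraries shared more of their regions (mean Jaccard index, shared regions over all regions of the pair, 0.807) than pairs of siNC libraries (0.614), and pairs across the groups shared least (0.468). The within-group mean exceeded the between-group mean by 0.242 (one-sided exact permutation test, p = 0.1, the smallest that 10 partitions of 6 libraries allow).

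Most lost regions were still occupied in tumor, though less often than other progenitor regions. Tumor libraries, which the definition did not use, occupied 63.6% to 67.1% of the lost regions, and hyperplasia libraries 64.3% to 66.8%. The same tumor libraries occupied 94.0% to 96.0% of the kept regions. Of the lost regions, untreated VDR libraries occupied 6.51% to 8.03%, siNfia libraries 4.77% to 5.73% and siNfib libraries 10.5% to 11.8%. Untreated VDR was low for the progenitor regions in general, at 41.9% to 51.4% of all that GNP shared. Of the 14656 lost regions, 7601 (51.9%) were occupied in 3 of 3 tumor libraries, 3079 (21%) in 0 of 3, and 9870 (67.3%) in 0 of the 12 libraries of the VDR line. Gained regions were the reverse, at 79.4% to 84.7% in siNfia, 73.2% to 76.1% in siNfib, 25.1% to 26.0% in tumor and 0 of 9 primary libraries for 3117 of them (49.4%). Untreated VDR occupied 29.4% to 39.8% of the gained regions, and its 3 libraries shared little with each other (mean Jaccard index 0.226).

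**Figure D1:**
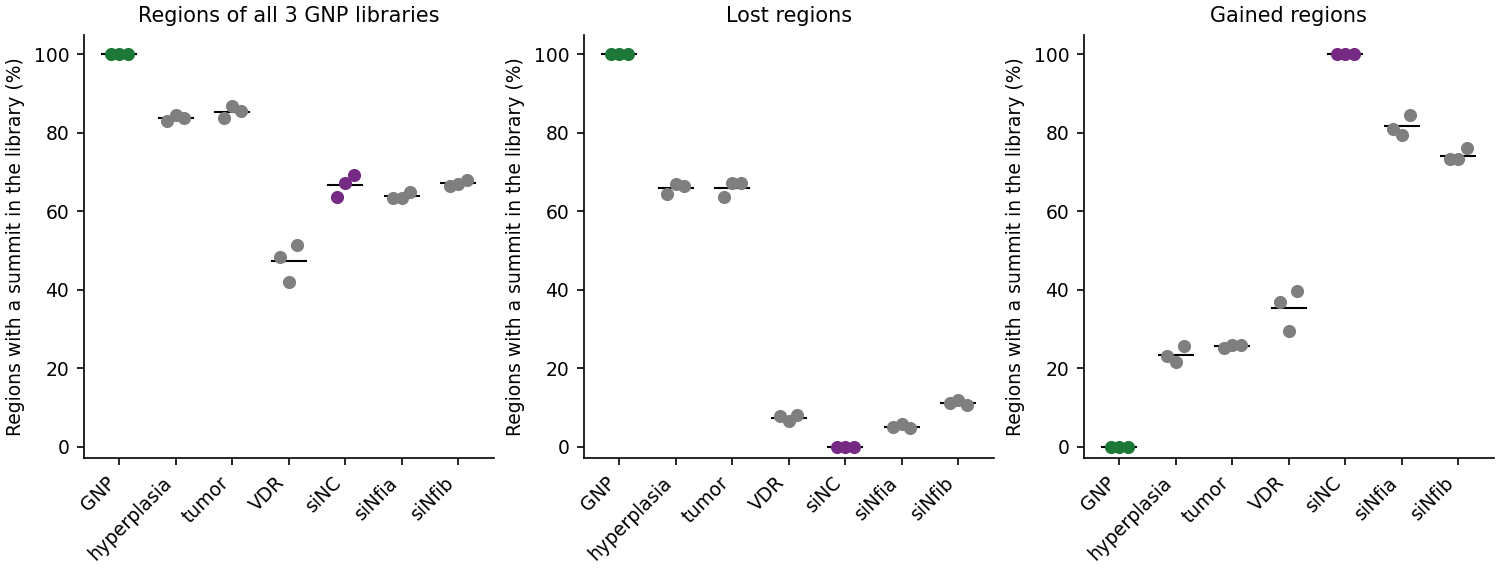
Percentage of the 59572 regions of all 3 GNP libraries (left), of the 14656 lost regions (middle) and of the 6313 gained regions (right) that hold a kept summit in each of the 21 libraries, by group. Points are libraries and the line is the group mean, and values of 0% and 100% for GNP and siNC follow from the definitions. Tumor and hyperplasia libraries lie above 63% for lost regions while the other VDR libraries lie below 12%.

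How strongly a region was open in the progenitors went with whether the line kept it. Ranked by mean rank over the GNP libraries, the strongest decile of the shared regions was kept at 96.0% and lost at 1.90%, and the weakest decile was kept at 25.2% and lost at 47.5%. Part of this gradient follows from the definition, because kept and lost rest on a cut in rank. The weakest decile lay nearest that cut, where a small shift in rank empties a region. How much of the gradient is built in was not tested. Position went with loss in every decile. Within 1 kb of either end of a gene body, 12.2% of shared regions were lost and 72.5% kept, against 28.9% lost inside gene bodies away from their ends and 42.3% lost where no gene lay within 100 kb. In the middle of the ranking, the fifth decile, 11.3% of regions near gene ends were lost and 26.0% of those elsewhere. The weakest decile still differed, at 40.5% near gene ends and 49.0% elsewhere. These are shares of regions, which are not replicates, and they carry no test.

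**Figure D2:**
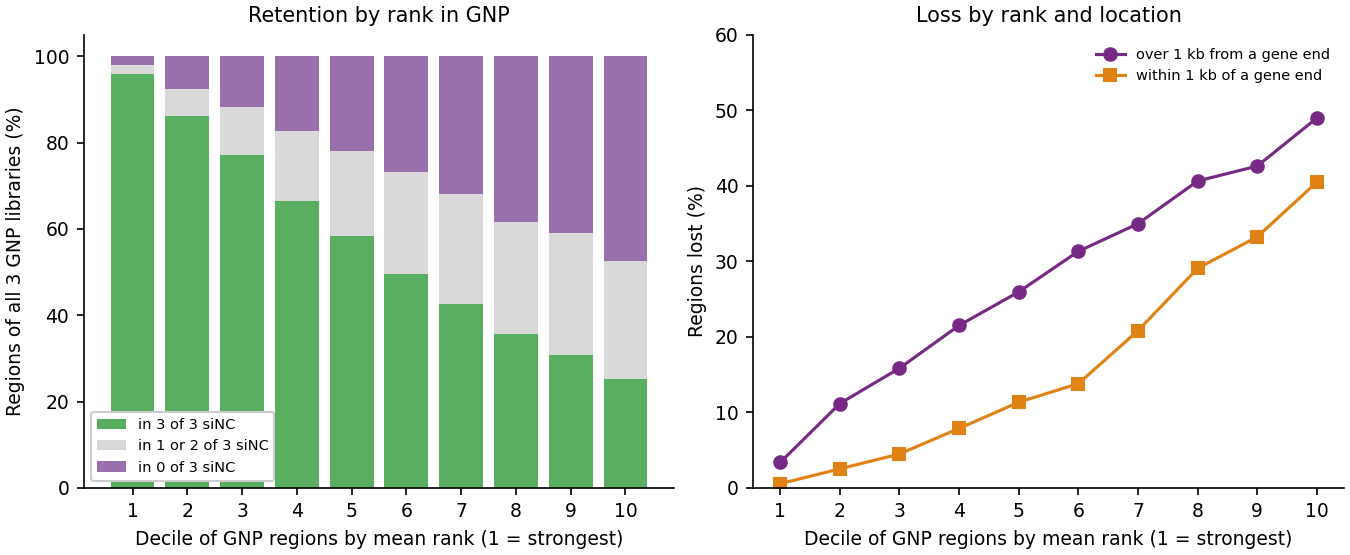
Left, shared GNP regions in deciles of their mean rank in GNP, with the percentage occupied in 3, in 1 or 2, and in 0 of the 3 siNC libraries. Right, percentage lost in each decile for regions within 1 kb of a gene end and for the others; both lines rise from the strongest to the weakest decile, and the line for gene ends lies lower throughout.

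Per library, the share of kept summits near gene ends was 30.4% ± 1.94 in siNC and 32.0% ± 0.466 in GNP (SD, n = 3 each), a difference within the spread of siNC (exact two-sided permutation test, p = 0.3). In gene bodies the shares were 59.0% ± 0.509 and 61.2% ± 0.197, and outside genes and their ends 30.1% ± 0.983 and 28.8% ± 0.313. The groups did not overlap in these last comparisons (exact permutation test, p = 0.1, adjusted p = 0.15 for each), and 0.1 is the smallest p that 3 against 3 allows.

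Promoters were mostly kept. A promoter was called open in a library with a kept summit within 500 bp of the gene start. Of 9995 genes with a promoter open in all 3 GNP libraries, 8460 (84.6%) were open in all 3 siNC libraries and 867 (8.67%) in none. Only 48 of the 17491 genes with a promoter window (0.274%) had a promoter open in all siNC and no GNP library. The lost promoters were open in 68.6% to 70.7% of cases in the tumor libraries, against 95.7% to 96.2% for all promoters open in the 3 GNP libraries, and 625 of the 867 were open in no VDR library of any kind.

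The lost promoters included some of the strongest peaks of the progenitors. Unc5c, a netrin receptor of growing axons, headed them by its mean rank in GNP, followed by Cstf2t, a testis-type subunit of the mRNA cleavage machinery, at ranks 2185, 3125 and 2127. Next in order came Gpc2, a glypican of developing neurons, and Stag3, a cohesin subunit of meiosis, whose starts share the same summits, then Isoc2a, Khdrbs2, Adarb2 and Mical2. Gria4, an AMPA-type glutamate receptor subunit, stood at 6256, 4117 and 3320, Irx2, an Iroquois homeobox factor, at 5319, 5761 and 5240, and Kcnip1, a subunit that binds A-type potassium channels, at 7335, 5794 and 4765. Pcdh8, a protocadherin, stood between Gria4 and Irx2 at 6480, 5323 and 3731. Of these 12 promoters 11 were open in 3 of 3 tumor libraries and Khdrbs2 in 2, and 10 were open in 0 of 3 untreated VDR libraries, Adarb2 in 1 and Pcdh8 in 2.

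Among the 48 gained promoters were Dhh, which encodes the ligand Desert hedgehog, Sparc and Bgn, which encode matrix proteins, Itga5, a fibronectin receptor subunit, Slc7a11, a cystine transporter, and Gpr161, a ciliary receptor that restrains the Hedgehog pathway. The Dhh promoter was open in 3 of 3 siNC libraries at modest ranks, 67600, 65165 and 76043, and in 0 of the 9 primary libraries. Gpr161, at 40887, 38292 and 49394, was also open in 3 of 3 tumor libraries. By kept summits, the gained set thus mixes promoters seen in the line alone among these groups with promoters already open in the tumor. Only 9 of the 48 gained promoters (18.75%) had no summit in the whole GNP lists. Dhh, Sparc, Bgn, Itga5 and Slc7a11 had a summit in 3 of 3 whole GNP lists, and Gpr161 in 1. For these genes a gain is a change in rank, not an appearance from nothing.

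By composition the lost promoters lay between the kept and the closed ones. The median ratio of observed to expected CpG in the window was 0.81 for kept, 0.57 for lost, 0.31 for gained and 0.20 for promoters closed in both, against 0.57 for all. Of 11 short motifs searched on both strands, GGGCGG was present in 70.3% of kept, 58.6% of lost, 39.4% of gained and 14.6% of closed windows and in 46.2% of all. AGGGGGC, a core of CTCF sites, was in 17.8% of kept, 16.5% of lost and 12.9% of all windows. TGANTCA (AP-1) was in 3.60%, 6.15% and 6.99%, CAGCTG (an E-box) in 14.1%, 19.4% and 15.6%, and CAGATG (another E-box) in 10.02%, 14.5% and 14.6%. The shares for TTGGCA (an NFI half-site) were 10.4%, 12.2% and 13.1%, for GGTGGTC (GLI) 2.88%, 3.12% and 2.76%, and for TAATTA (homeobox factors) 2.05%, 3.39% and 4.53%. For GGAATG (TEAD) they were 10.8%, 11.3% and 13.6%, for ACAATG (SOX) 6.09%, 7.06% and 11%, and for GTTGCCA (an RFX half-site) 4.02%, 5.32% and 4.18%. In percentage points GGGCGG differed most between kept and lost windows, and as a ratio AP-1 and homeobox motifs did. Matches are letters in a window, not bound sites.

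For genes, the number of occupied regions assigned to each gene was compared between the groups with limma, on the log2(regions + 1) scale. A region belonged to the smallest gene body that held it, or else to the nearest gene within 100 kb. Of 6808 genes with a mean of at least 3 regions, 1528 (22.4%) had fewer regions in siNC at an adjusted p under 0.05 and are said to have fallen, and 1136 (16.7%) had more and are said to have risen. The median log2 change over all genes tested was -0.02. The 3 values of each group did not overlap in 26.2% of genes that were lower in siNC and 19.3% that were higher, as shares of all tested. Of the 2664 calls, 1236 (739 falls and 497 rises) held in every fit with 1 library left out. Rises depend on taking equal numbers of summits. When each list was instead cut at a score of at least 10, the median gene moved to -0.86 and 43 genes rose against 3159 that fell, so a rise below means more regions at equal list length. Where the text names a gene whose regions were 0 in siNC, its log2 change depends on the added 1 and is no bound on a fold.

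At the 12 genes that fell most, the shared progenitor regions were nearly all lost. Ntrk2, the receptor for the neurotrophin BDNF, had 18, 21 and 19 regions in the GNP libraries and 0 in each siNC library (log2 change -4.34 ± 0.0618 SE, limma adjusted p = 5.9e-06). All 16 of its shared GNP regions were lost, while the tumor libraries had 16 ± 1.73. Dpp6, an auxiliary subunit of A-type potassium channels, went from 19, 19 and 15 regions to 0 in each (-4.21 ± 0.1, adjusted p = 3.1e-05), with 17.7 ± 2.52 in tumor. Both genes thus stood in tumor at a level close to that of the progenitors.

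Unc5c went from 13, 13 and 15 regions to 0 (-3.87 ± 0.062, adjusted p = 8.3e-06), and Gria1, another AMPA receptor subunit, from 14, 13 and 13 to 0. Ajap1, an adherens junction protein, had 16, 14 and 15 in GNP and 0 in siNC. Spock1, a secreted proteoglycan, Sorcs1, a sorting receptor of neurons, Pcdh10, a protocadherin, Lrrc4c, a synaptic netrin-G partner, Cpz, a carboxypeptidase, and Fstl4, a follistatin-like protein, completed the group with Gli3. Their siNC values were 0 in all libraries except for single regions at Fstl4 in replicates 2 and 3 and at Gli3 in replicate 1. The promoters of Ntrk2, Dpp6, Unc5c, Spock1, Sorcs1, Cpz, Pcdh10, Lrrc4c and Gli3 were lost, that of Ajap1 was open in part of the libraries, that of Fstl4 was closed in both groups and that of Gria1 was not analysed here. All 12 kept an adjusted p under 0.05 whichever library was left out. In tumor, Lrrc4c (1.67 ± 0.577 regions) and Gli3 (3.00 ± 0) were low as well, and Fstl4 (20.7 ± 1.53) was not. Untreated VDR had 11.7 ± 2.31 regions at Fstl4, 6 ± 1 at Ajap1, 4.67 ± 2.31 at Spock1, 4 ± 2.65 at Gria1 and at most 2.67 ± 1.53 (Cpz) at the other 8, so the line without siRNA was not at 0 for all of them.

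Many of the genes that rose most lay on chromosomes 4 and 6, some of them near each other. Dennd5b, Far2, Resf1, Sinhcaf, Stk38l, Cav3 and Hpgds lie on chromosome 6, and Mpdz and Saxo1 on chromosome 4. Dennd5b, an exchange factor for Rab GTPases, rose from 3 regions in each GNP library to 43, 31 and 19 (2.93 ± 0.301, adjusted p = 0.0032). Mpdz, a scaffold with PDZ domains, had 4, 4 and 6 in GNP and 89, 41 and 21 in siNC (2.96 ± 0.553, adjusted p = 0.015). Without GNP replicate 1, GNP replicate 2 or siNC replicate 2 its adjusted p was 0.062, 0.064 and 0.053. In both genes siNC replicate 1 was highest and replicate 3 lowest. The call at Far2 was lost without GNP replicate 1, 2 or 3 or siNC replicate 2 (adjusted p 0.051 to 0.077), and that at Resf1 when any library but siNC replicate 1 was left out (0.051 to 0.098).

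Of these genes Cav3, Stk38l, Dennd5b, Far2, Sinhcaf, Resf1 and Mpdz lie in 3 stretches of the genome with many more summits in the line. On chromosome 6 from 106 to 114 Mb the GNP libraries held 265, 265 and 255 kept summits and the siNC libraries 1200, 832 and 658. From 146 to 150 Mb of the same chromosome the counts were 128, 125 and 137 against 856, 518 and 399, and on chromosome 4 from 80 to 86 Mb they were 266, 277 and 283 against 1026, 684 and 634. The stretches join neighbouring windows picked for their high ratio of siNC to GNP summits, so the distance between the groups follows from that choice. Within siNC, replicate 1 was highest in each stretch. Untreated VDR means were 1312, 868 and 732, and tumor means 348, 157 and 303. Of 59 genes tested in these stretches, 44 rose and 0 fell, beside 16.7% and 22.4% over all genes. Gene counts rest on the same summits that picked the stretches, so these calls are not separate support. Nfib, described below, lies in the stretch on chromosome 4. DNA copy number was not tested.

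The same pattern held at the scale of whole chromosomes. Chromosome 6 held 8.18% ± 1.00 of siNC summits and 5.13% ± 0.0692 of GNP summits (log2 ratio 0.67), and chromosome 15 held 6.32% ± 0.603 and 4.19% ± 0.011 (0.59). Of the other autosomes, 1, 8, 12 and 17 were also higher in every siNC library than in any GNP library. Chromosome 12 differed least (4.45% in siNC and 4.31% in GNP), and 17.2% of its tested genes rose and 16.9% fell. Chromosome 5 was lower, at 4.80% ± 0.251 and 6.60% ± 0.099 (-0.46). Of 1136 genes that rose, 704 lay on chromosomes 1, 6, 8, 15 and 17, which held 2030 of the 6808 genes tested. These chromosomes were picked for their siNC shares, and gene counts rest on the same summits, so the excess is no separate finding. Retention, which is read from the same summits too, went with the summit shares. Chromosome 15 kept 71.5% of its shared GNP regions and lost 15.7%, and chromosome 5 kept 46.7% and lost 31.6%. With the median change of each chromosome subtracted from its genes, 1133 rose and 1294 fell.

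**Figure D3:**
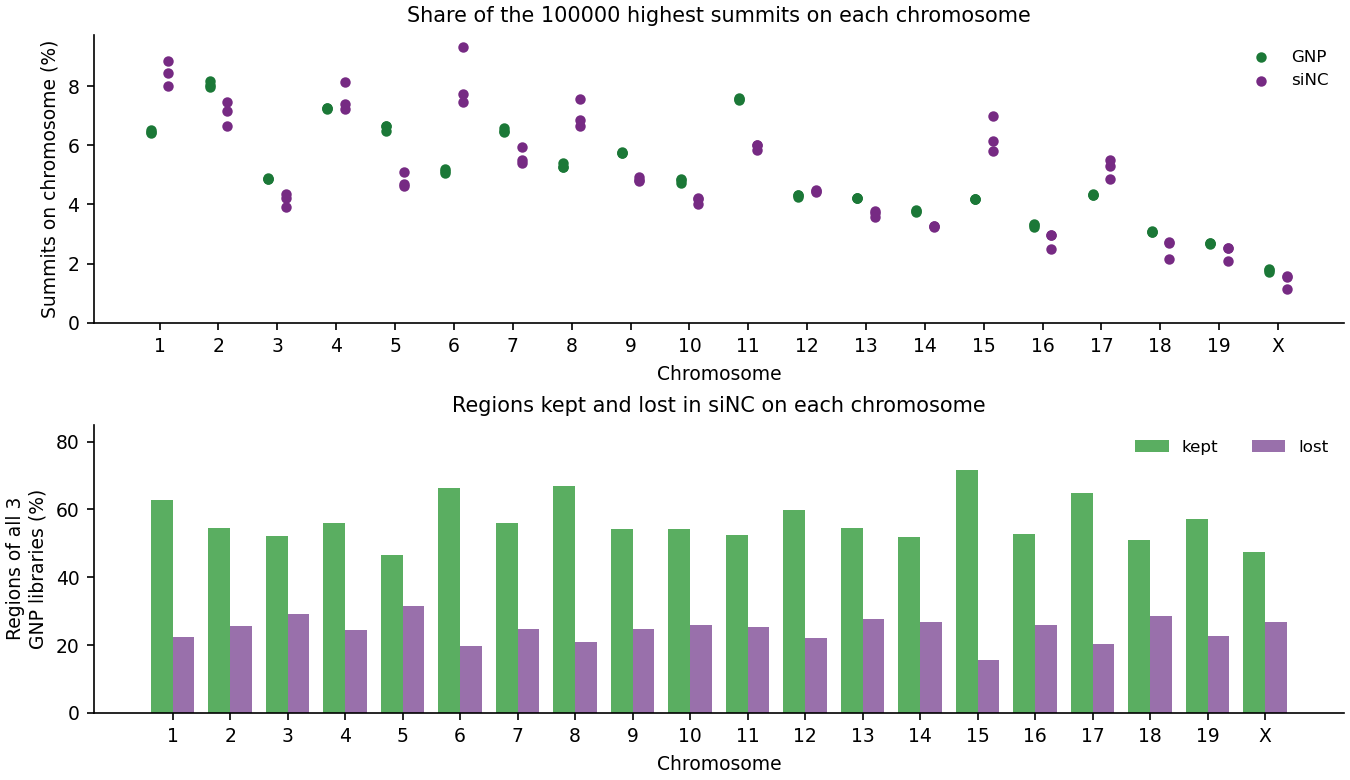
Top, percentage of the 100000 kept summits on each chromosome in the 3 GNP and 3 siNC libraries (chromosome Y not drawn), each point a library. Bottom, percentage of the shared GNP regions on each chromosome that were kept and lost; chromosomes 6, 8 and 15, which hold a larger share of siNC summits, show the highest kept percentages.

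Outside those stretches, Hjurp, its neighbour Mroh2a (4, 3 and 3 regions to 29, 28 and 14) and Sfi1 were among the 12 that rose most, while the median change of the genes around each was near 0. Trpm8, close to Hjurp, rose as well, from 1, 2 and 2 to 17, 9 and 4 (1.88, adjusted p = 0.043), and lost its call when any library but siNC replicate 3 was left out (0.070 to 0.13). Hjurp, the chaperone of the centromeric histone CENP-A, went from 5, 5 and 6 regions to 32, 35 and 33 (2.44 ± 0.0796, adjusted p = 8.4e-05), where the genes around it had a median change of -0.06. Sfi1, a centrosome protein, went from 5 in each to 42, 34 and 33 (2.63 ± 0.1, adjusted p = 0.00014), with neighbours at 0.04. Tumor libraries had 11 ± 12.1 regions at Sfi1, a spread larger than the mean. Whether reads from near-identical copies of sequence fall on these genes was not tested, and all 3 are uncertain for that reason.

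The factors that define granule progenitors were lost in part, with the gene most used to mark the lineage among the exceptions. Of 30 listed factors 29 were tested, 18 fell and 3 rose, beside 22.4% and 16.7% of all genes, and their median log2 change was -0.39. With chromosome medians subtracted, 12 of them fell and 4 rose, beside 1294 and 1133 of the 6808 genes tested. Of the shared GNP regions at the listed factors 51.1% were kept and 30.5% lost, against 58.2% and 23.0% over all genes. The homeobox genes En1 and En2, which pattern the cerebellar field, went from 9, 8 and 8 to 1, 0 and 1 (-2.55, adjusted p = 0.0047) and from 15, 15 and 14 to 4, 2 and 4 (-1.89, adjusted p = 0.0047).

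Pax6, which granule cells need for migration, kept some of its regions: 31, 31 and 30 in GNP and 12, 10 and 9 in siNC (-1.49 ± 0.104, adjusted p = 0.0011), with 7 shared regions kept and 19 lost of 27. Its promoter was lost, at GNP ranks 10912, 9396 and 9207. Neurod1, a bHLH factor of early neurons, went from 9, 10 and 10 to 2, 4 and 3 (-1.44, adjusted p = 0.007), and Barhl2, an Atoh1-dependent homeobox factor, from 20, 18 and 21 to 6, 9 and 8 (-1.27, adjusted p = 0.0047). Ccnd2, the cyclin of dividing progenitors, went from 16, 15 and 14 to 9, 8 and 8 (-0.78). In none of these genes did the groups overlap.

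Smaller falls passed the test at Tlx3 (-1.35), Insm1 (-1.16), Nhlh2 (-0.80), Hes6 (-0.69), Sox11 (-0.45), Meis1 (-0.42), Sox4 (-0.40), Neurod2 (-0.39), Gli1 (-0.34), Ccnd1 (-0.33) and Barhl1 (-0.23). Of these, Barhl1 lost its call whichever library was left out (adjusted p 0.070 to 0.12), and so did Neurod2 (0.056 to 0.12). Insm1, Hes6 and Gli1 lost theirs when any library but siNC replicate 2 was left out (0.056 to 0.12 over the 3 genes), Sox11 when any but siNC replicate 1 was (0.051 to 0.098), Meis1 without GNP replicate 3 (0.058) and Nhlh2 without GNP replicate 2 (0.052).

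Atoh1 itself rose, from 9, 11 and 10 regions to 18, 18 and 17 (0.77 ± 0.078, adjusted p = 0.0031). It lies on chromosome 6, where the median change of all genes tested was already 0.41. Of its 9 shared GNP regions 8 were kept and 0 lost, and 4 were gained. Ntrk3, the receptor for neurotrophin-3, rose from 17, 18 and 18 to 29, 34 and 31 (0.79, adjusted p = 0.0019), the opposite of its relative Ntrk2. Cxcr4, the chemokine receptor that holds progenitors in the outer layer, rose from 12 in each to 21, 25 and 20 (0.82, adjusted p = 0.0038). All 3 rises turned to small negative values at a score of at least 10 (-0.093, -0.073 and -0.38), where the median gene stood at -0.86. No change passed the test at Zic1, Zic2, Zic4, Zic5, Mycn, Nhlh1, Lhx9 and Etv1, with log2 changes from -0.18 to 0.28. At promoters, 17 of 22 in the list were kept, and those of Pax6 and En1 were lost. Of all genes with a promoter window, 48.4% had a kept and 4.96% a lost promoter.

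The Hedgehog pathway showed opposite changes at its transcription factors. Gli3, which acts mainly as the pathway's repressor, fell from 12, 11 and 12 regions to 1, 0 and 0 (-3.33 ± 0.305, adjusted p = 0.0023), and 10 of its 10 shared GNP regions were lost. Gli2, its main activator, had 42, 45 and 42 in GNP and 69, 70 and 56 in siNC (0.58 ± 0.099, adjusted p = 0.012). The groups did not overlap for either gene. The Gli2 call was lost without GNP replicate 1 or 3 (adjusted p 0.051 and 0.050), and after subtraction of the median change of chromosome 1 (0.061), and the genes around Gli2 had a median change of 0.64. Gli1, both an effector and a target, had 7 in each GNP library and 5, 6 and 5 in siNC.

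Among receptors and co-receptors, Ptch1 stood at 20, 18 and 15 in GNP and 18, 16 and 14 in siNC, which overlap (-0.13, adjusted p = 0.48), and Smo, the transducer that Ptch1 restrains, had 4 in each and 6, 4 and 4 (0.16). The co-receptor Cdon fell from 9, 8 and 8 to 3, 4 and 4 (-1.01, adjusted p = 0.0038). The other co-receptors, Boc (-0.12) and Gas1 (-0.16), did not pass the test. Of these 3 co-receptors Cdon passed the test, and the differences between them were not tested. Hhip, a decoy receptor and target, rose from 4, 3 and 4 to 11, 7 and 7 (0.98, adjusted p = 0.020). Spop, an adaptor for the ubiquitin ligase that degrades Gli proteins, fell from 8, 6 and 8 to 3 in each (-1.05, adjusted p = 0.0038). Of the ligand exporters, Disp1 rose (0.36) and Disp2 fell (-0.64), and Sufu (-0.06), Gpr161 (0.32) and the acyltransferase Hhat (-0.21) did not pass.

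Of 26 pathway genes 16 were tested, 3 rose and 6 fell with a median of -0.15, beside 16.7% and 22.4% of all genes, and 57.1% of their shared GNP regions were kept and 23.7% lost, close to all genes. The calls at Disp2, Disp1 and Hhip were lost without GNP replicate 1, 2 or 3 (adjusted p 0.052 to 0.13). Further, Disp2 lost its call without siNC replicate 1 or 3 (0.055 each) and Disp1 without siNC replicate 2 or 3 (0.059 and 0.092). With chromosome medians subtracted, 0 rose and 4 fell. Gli3, Hhat and Lrp2 had lost promoters of 17 with a window, and 9 were kept, beside 4.96% lost and 48.4% kept of all genes with a window.

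The NFI family, the transcription factors whose knockdown the series tests, kept 60.3% of its progenitor regions, close to the 58.2% over all genes. It lost 13.5%, beside 23.0% over all genes. Of its regions, Nfib alone had 45, with 30 kept and 2 lost. Nfia fell slightly, from 61, 60 and 61 regions to 48, 49 and 53 (-0.28 ± 0.043, adjusted p = 0.0094). Nfib rose from 47, 54 and 54 to 119, 85 and 78 (0.83 ± 0.178, adjusted p = 0.022), within the stretch of chromosome 4 described above, where its neighbours had a median change of 1.15. Its call was lost when any 1 GNP library or siNC replicate 2 was left out (adjusted p 0.056 to 0.076), and at a score of at least 10 its change was -0.49. Nfic (-0.52, adjusted p = 0.068) and Nfix (0.02) did not pass the test.

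**Figure D4:**
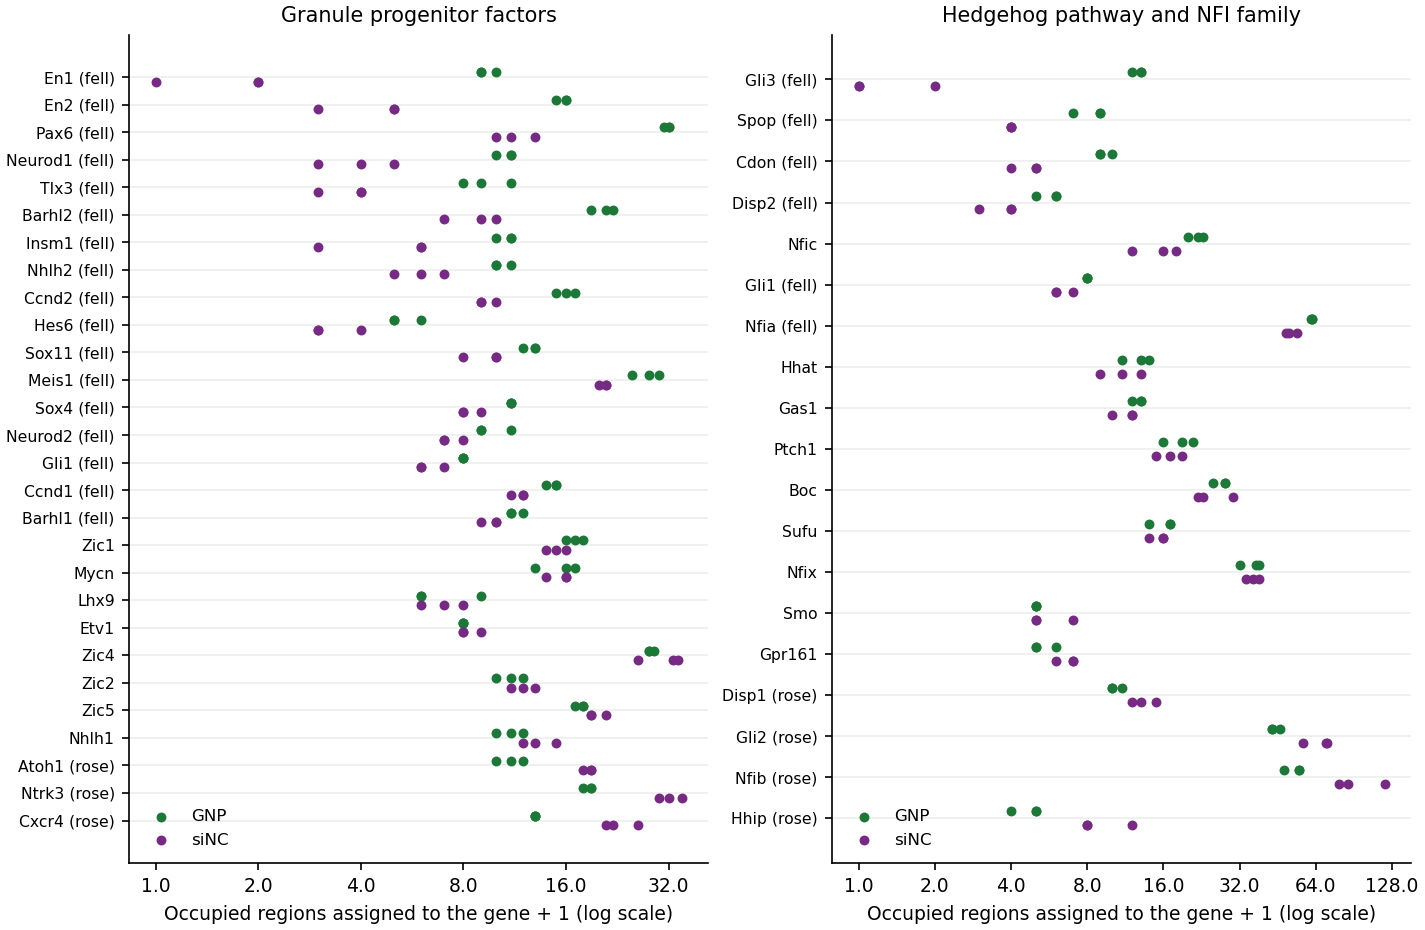
Number of occupied regions per gene, plus 1 on a log axis, for granule progenitor factors (left) and genes of the Hedgehog pathway and the NFI family (right) that were tested and are reported here, sorted by log2 change. Each point is a library, and points of equal value overlap. The words rose and fell mark genes past the limma threshold at equal list length; the rises of Atoh1, Ntrk3, Cxcr4, Gli2, Hhip, Disp1 and Nfib turned negative at a score of at least 10.

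The next lists hold genes of the neuron that a granule progenitor becomes, and their values stand beside 22.4% fallen, 16.7% risen, 23.0% of regions lost and 58.2% kept over all genes. Of 24 tested genes of granule neuron differentiation 11 fell (45.8%) and 3 rose (12.5%), and 36.1% of their shared GNP regions were lost and 45.5% kept, with a median of -0.31. Reln, the secreted guide of neuronal migration, went from 41, 36 and 34 regions to 9, 8 and 15 (-1.75, adjusted p = 0.0071). Rbfox3, a splicing factor of mature neurons, went from 46, 50 and 51 to 24, 23 and 22 (-1.06, adjusted p = 0.00043). Tubb3, the neuronal tubulin, was an exception, rising from 5, 4 and 4 to 13, 14 and 14 (1.46, adjusted p = 0.00078).

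Synaptic adhesion genes stood lowest of the neuronal lists in retention: 35.7% of their shared GNP regions were kept and 42.2% lost, and 15 of 31 tested genes fell (48.4%) and 3 rose (9.68%), with a median of -0.62. Lsamp, a cell-surface protein of the limbic system, went from 32, 33 and 35 to 10, 6 and 10 (-1.86, adjusted p = 0.0038), and Csmd2 from 27 to 8 in each library (-1.64, adjusted p = 8.3e-06). Of 32 promoters in this list 9 were lost and 12 kept, beside 4.96% lost and 48.4% kept of all genes with a promoter window.

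Voltage-gated channels and their partners had 14 falls (48.3%) and 3 rises (10.3%) of 29 tested, beside 22.4% and 16.7% over all genes, a median of -0.25 and 33.3% of regions lost beside 23.0%. Kcna1, a Kv1 potassium channel, went from 6, 7 and 6 regions to 1 in each (-1.87, adjusted p = 8.9e-05). Cacna1c, the pore of an L-type calcium channel, rose from 30, 31 and 28 to 92, 66 and 59 (1.23, adjusted p = 0.0076). It lies on chromosome 6 between 118 and 120 Mb, a stretch with more summits in the line. There the GNP libraries held 142, 145 and 145 kept summits and the siNC libraries 420, 333 and 291. Whether the rise at Cacna1c is separate from that of the stretch was not tested. Of 29 promoters 11 were lost, beside 4.96% of all genes with a promoter window. Among them were Kcnd2, Kcnip1, Kcnip4, Dpp6 and Dpp10, the pore and auxiliary subunits of the A-type potassium channel. They did not behave alike in other groups. The Dpp6 promoter was open in 3 of 3 tumor and 0 of 3 untreated VDR libraries, and that of Dpp10 in 0 of 3 tumor and 3 of 3 untreated VDR libraries. Axon guidance genes had 15 falls (40.5%) and 4 rises (10.8%) of 37 tested, a median of -0.31 and 31.8% of regions lost. The ligand Ntn1 fell from 24, 25 and 23 to 11, 10 and 10 (-1.14, adjusted p = 0.00032), and Efnb2, an ephrin, from 11, 11 and 10 to 2 in each (-1.96, adjusted p = 3.3e-05). Sema5a, a semaphorin, rose from 13, 14 and 14 to 26, 25 and 24 (0.83, adjusted p = 0.00068). Of 35 guidance promoters 6 were lost and 23 kept, beside 4.96% and 48.4% of all genes with a promoter window.

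Regions at genes that every dividing cell uses were mostly kept. Of the shared GNP regions at ubiquitously used genes 84.3% were kept and 3.37% lost, and 7 of 11 tested genes rose and 0 fell, with a median of 0.43. Over all genes 58.2% were kept and 23.0% lost, and 16.7% of those tested rose and 22.4% fell. Hsp90ab1, a chaperone gene, rose from 5, 4 and 4 to 8, 9 and 7 (0.75, adjusted p = 0.0098). Cell cycle genes kept 75.2% and lost 6.67%, with 3 rises and 3 falls of 16 tested and a median of 0.00. Those called shares, 18.75% each, lay near the shares over all genes. Mcm5, of the replicative helicase, rose from 4 to 8 in each library (0.85, adjusted p = 0.00011). None of the 23 cell cycle, 27 chromatin regulator and 19 ubiquitous promoters was lost, beside 8.67% of promoters open in all 3 GNP libraries. At that share few losses would fall in lists of this size.

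Growth control, early response and chromatin genes had list medians from -0.16 to 0.20, and most of their shares of called genes lay near the 16.7% risen and 22.4% fallen over all genes. Cell cycle inhibitors and tumour suppressors had 3 rises and 4 falls of 14 tested (median -0.10), and the corepressor gene Bcor fell from 20, 22 and 21 to 6, 5 and 9 (-1.55, adjusted p = 0.0058). AP-1 and immediate early genes had 3 rises (15%) and 4 falls (20%) of 20 (median 0.01), with Arc, a synaptic immediate early gene, falling from 6 in each to 1, 2 and 1 (-1.61, adjusted p = 0.0038). The Hippo pathway had 3 rises (23.1%) and 1 fall (7.69%) of 13 (median 0.20), the fall being Tead1, a partner of YAP, from 23, 23 and 22 to 9, 11 and 12 (-1.03, adjusted p = 0.0033). Chromatin regulators had 5 rises and 5 falls (17.9% each) of 28 (median -0.16). The largest of those falls was Chd7, a remodeller that granule progenitors need, from 38, 37 and 40 to 10, 11 and 11 (-1.75 ± 0.0536, adjusted p = 6.5e-05), with 39.0 ± 3.61 regions in tumor. Chd7 lies on chromosome 4 between 8 and 10 Mb, a stretch with fewer summits in the line. There the GNP libraries held 156, 147 and 163 kept summits and the siNC libraries 39, 43 and 46 (log2 ratio -1.84). Whether the fall at Chd7 is separate from that of the stretch was not tested.

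**Figure D5:**
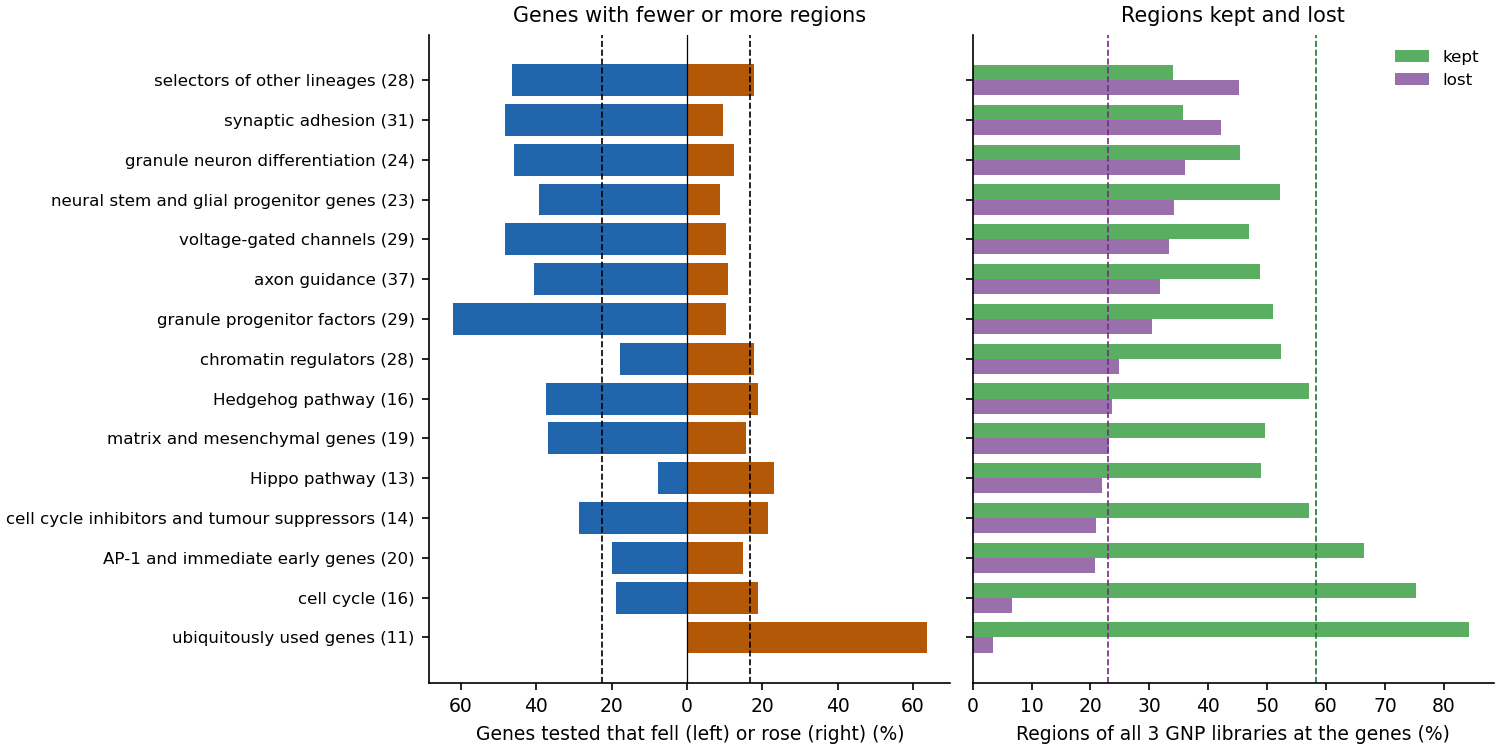
Left, percentage of the tested genes of each list that fell or rose (limma, adjusted p under 0.05, equal list length), for lists with at least 10 tested genes, whose number stands in brackets; dashed lines are the values for all genes, 22.4% and 16.7%. Right, percentage of the shared GNP regions at the genes of each list that were kept and lost, with dashed lines for all genes at 58.2% and 23.0%. Ubiquitously used and cell cycle genes lie at the kept end and synaptic adhesion genes and selectors of other lineages at the lost end.

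Selectors of other lineages, the transcription factors that set other fates, had 45.1% of their shared GNP regions lost and 34.0% kept, with 13 falls (46.4%) and 5 rises (17.9%) of 28 tested and a median of -0.49, beside 22.4% and 16.7% over all genes. Tbr1, a factor of cortical and cerebellar nuclear neurons, went from 8 in each to 0 in each (-3.17, adjusted p = 9.9e-08), and Pax7 from 9, 11 and 12 to 3, 2 and 3 (-1.67, adjusted p = 0.0029). Six2, a kidney progenitor factor, rose from 6, 5 and 6 to 17, 12 and 12 (1.12, adjusted p = 0.0073). Neural stem and glial progenitor genes had 9 falls and 2 rises of 23 (median -0.11), and Olig2, a factor of the oligodendrocyte lineage, went from 9, 9 and 8 to 1, 0 and 0 (-2.94 ± 0.306, adjusted p = 0.0033). Matrix and mesenchymal genes had 7 falls and 3 rises of 19 (median -0.18). Among the rises were Itgb1, an integrin, from 3 in each to 11, 11 and 10 (1.54, adjusted p = 7.3e-05), and Prrx1, a mesenchymal homeobox factor, from 5, 4 and 5 to 13, 14 and 12 (1.31, adjusted p = 0.0015). The promoter of Prrx1 was lost, and at a score of at least 10 its change was -0.12.

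Summed over each list, markers of cells that a sort could carry along were low in both groups or lower in siNC, though single markers rose. Few were tested, and their calls stand beside 22.4% fallen and 16.7% risen over all genes. The 10 astrocyte markers summed to 45 to 52 regions in GNP and 36 to 39 in siNC, and 2 of 4 tested fell and 1, Slc1a3, rose. S100b and Aldoc had 0 regions in all 6 libraries. The 10 oligodendrocyte markers summed to 25 in each GNP library and 13 to 16 in siNC, with Mag at 0 throughout and Mbp, the 1 gene tested, falling (-0.80, adjusted p = 0.013, and 0.050 to 0.055 when 1 GNP library was left out). The 12 microglial and immune markers summed to 17 to 19 and 16 to 25, with Csf1r and Itgam at 0 throughout, and none of 2 tested passed. The 12 endothelial and mural markers summed to 49 to 53 and 41 to 43 (2 of 7 fell and 1 rose), with Tie1 and Rgs5 at 0 throughout. The 12 Purkinje and interneuron markers summed to 63 to 68 and 40 to 45 (2 of 5 fell and 1, Foxp2, rose), and Ptf1a, which makes GABAergic neurons, went from 2 in each to 0 in each. What part other cells in the sorted GNP played in the lost regions was not tested.

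Of the 2 remaining lists, the Hox clusters had 14 shared GNP regions, 5 kept and 7 lost, with 1 gene tested, Hoxc4, which rose (0.46). Interferon and nucleic acid sensing genes had 22, 14 kept and 4 lost, with 1 rise and 1 fall, that of Irf1 (-0.80), among 4 tested. The call at Hoxc4 was lost when any library but siNC replicate 3 was left out (adjusted p 0.082 to 0.096). Of the markers of the labelled progenitors, Atoh1, Barhl1, Barhl2, Zic1, Zic2, Pax6, Neurod1, Mycn and Gli1 each had at least 7 regions in every GNP library, a level that Olig2, Tbr1 and Pax7 of other lineages reached too, so region counts alone do not settle identity. In siNC, Atoh1, Zic1, Zic2 and Mycn still had at least 10 in every library.

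Losses came in stretches as well as singly. Read along each chromosome, the shared GNP regions formed 61 uninterrupted series of at least 10 lost regions, with 866 regions in all (5.91% of those lost). The longest, 35 regions on chromosome 13 from 71017702 to 73160733, spans Irx1, Irx2 and Irx4. There the GNP libraries held 58, 56 and 55 kept summits, the siNC libraries 0 and the tumor libraries 59, 33 and 63. A series of 26 on chromosome 4 spans Ajap1, with 37, 38 and 40 summits in GNP, 0 in siNC and 31, 28 and 30 in tumor. At Gli3 a series of 21 fell from 32, 30 and 37 to 1, 0 and 0, and tumor was low too, at 8, 7 and 6. Others of at least 17 spanned Esrrg, Efnb2, Pcdh10, Unc5c, Ntrk2, Tbx3, Clstn2, Gria1 and En1. Kept regions formed 382 such series with 5031 regions (14.9%), the longest of 36 on chromosome 8 from 105700605 to 106301201, a gene-rich stretch that holds Acd, Nfatc3 and Smpd3.

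The strongest single regions of each class are given next. The strongest lost region with no summit in the whole siNC lists lay inside Uggt2, a glucosyltransferase of protein folding, at chr14:119007345-119007844, ranks 875, 835 and 634 in GNP, and was occupied in all 9 primary libraries. The Unc5c region at chr3:141465260-141465759 overlaps the promoter printed above. The strongest gained region near a gene lay 25162 bases from Mup7, at chr4:60041057-60041556, with ranks 989, 461 and 661 in siNC, in a gene cluster whose near-identical copies make it uncertain. Among gained regions with no summit in the whole GNP lists, that inside Gli2 at chr1:119001849-119002348 had ranks 2017, 638 and 10426 in siNC, was occupied in 2 of 3 hyperplasia and 1 of 3 tumor libraries, and lies 52306 bases from the nearest gene end. Within the line the Gli2 region was not constant, at 1 of 3 untreated VDR, 2 of 3 siNfia and 2 of 3 siNfib libraries. The kept region at a gene with the best mean rank lay in Hjurp, at chr1:88277319-88277818, ranks 5, 3 and 12 in GNP and 31, 29 and 32 in siNC. By rank alone the top kept regions lay on chromosome 2 at 98666917 and chromosome 17 from 39843121, at no protein-coding gene.

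Across genes with at least 8 shared GNP regions, 1629 in number, 37 kept none and 25 kept all. Those whose shared regions were all lost included Ntrk2 (16 regions), Esrrg and Dpp6 (13 each), Gria1 (12), Ajap1 and Unc5c (11 each) and Lingo2 (10). Esrrg, a nuclear receptor, still had 3 regions in siNC replicate 1 and 16.3 ± 4.16 in untreated VDR, and its fall lost its call when any 1 GNP library was left out (adjusted p 0.058 to 0.059). At the other end Trim27, a ubiquitin ligase, kept 13 of 13, Ttc39b and Lmcd1 11 of 11 each and Dock4, an exchange factor for Rac, 10 of 10. By number rather than share, the largest losses were at Camta1, a transcription factor of neurons (27 of 57 regions), Slc39a11 (24 of 43) and Zmiz1 (21 of 52). Long genes lost more, with 16.3% of shared regions lost at genes under 20 kb and 36.3% at those over 500 kb. A lost promoter lowers the region count of its gene by construction wherever its region is assigned to that gene. With that limit, 180 of 309 tested genes with a lost promoter fell (58.3%) and 15 rose, against 633 falls and 761 rises among 3990 with a kept promoter.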

How the data were processed

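Omni-ATAC summit lists of 21 libraries (7 groups of 3) were used, of which the 3 GNP and 3 siNC libraries were compared and the others looked up. Bowtie2, Picard, MACS2 and the mm10 build are named in the submitters' processing notes without versions, order or thresholds. Each deposited list gives summit positions and a score, which the authors' peak caller writes as the −log10 of a p-value or q-value, and which of these it is is not stated. The number of reads behind each list is unknown, so no counting interval was possible, and precision rests on 3 libraries per group. Whole lists differ in length and score, so only the 100000 highest summits of each library were kept (autosomes and the sex chromosomes).

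Summits of all 21 libraries were merged by rank into 270959 windows of 500 bp. Regions were assigned to 21883 protein-coding genes of RefSeq (GRCm38.p6), within 100 kb, which placed 89.1% of them. Between 79.3% and 81.1% of the kept summits of the 6 libraries lay inside a region. Genes with a mean of at least 3 regions were compared by limma 3.58.1 (R 4.3.3) on log2(regions + 1) with a trended prior and Benjamini-Hochberg adjustment at 0.05, and single values by exact permutation (scipy 1.17.1). Regions and promoters carry no test. Scripts were tested on simulated data with 200 changed genes.

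The genes named are the 12 with the largest change in each direction without overlap, the tested members of the granule progenitor, Hedgehog and NFI lists, and up to 4 called members of each other list. The members and all 23 gene lists (601 genes matched, 3 unmatched) were chosen with earlier results of these data known. Promoter windows and the genes that head a promoter or retention ranking were taken up after the files were seen. Alternatives changed list length, score, region width and merging, assignment, filter, pseudocount and libraries. Motifs in regions were not analysed here. A few genes are not reported here, and the counts over lists include them.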

Additional observations from a re-analysis of the deposited data

How the results depend on the processing

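Kept, lost and gained regions rose or fell in number with list length: 50000 summits gave 18485 kept and 7710 lost, whole lists 54898 and 33346. With 1 summit per peak 29598 were kept and 20815 lost. A score of at least 10 in place of equal length gave 24373 kept, 27846 lost and 995 gained regions, and 43 genes that rose against 3159 that fell. Genes that rose and fell numbered 669 and 770 with 50000 summits, 1840 and 2940 with whole lists, 695 and 954 with a replicate block, and 2577 fell with no filter. The numbers of the replicates do not pair the samples (correlations of same-numbered deviations -0.011, -0.008 and 0.002), so the block fit is only an alternative. Without 1 library, kept regions ranged from 34444 to 37561, lost from 15769 to 17065 and gained from 6933 to 9501 (9501 without siNC replicate 1), genes that rose from 697 to 940 and that fell from 859 to 1447, the Jaccard difference from 0.190 to 0.295 and the gene-end difference from -2.42 to -0.498.

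With whole lists the changes of Tbx15 (-0.20), C1qtnf7 (-0.17), Foxd1 (-0.15), Disp1 (-0.10) and Cdkn1a (-0.23) changed sign. At a score of at least 10, where the median gene moved to -0.86, so did Tbx15 (-0.16), C1qtnf7 (-0.11), Atoh1 (-0.093), Cxcr4 (-0.38), Ntrk3 (-0.073), Gli2 (-0.47), Hhip (-0.27), Disp1 (-0.85), Nfib (-0.49), Cdkn1a (-0.38), Jund (-0.014), Nr4a1 (-0.77), Yap1 (-1.04), Itga5 (-0.39), Prrx1 (-0.12), Slc1a3 (-0.44), Abcc9 (-0.051), Foxp2 (-0.88), Hoxc4 (-0.18), Hdac9 (-0.22), Kmt2d (-0.86), Ppia (-0.14) and Actb (-0.41). With 1 summit per peak Barhl1 (0.11), Meis1 (0.042), Disp1 (-0.12) and Yap1 (-0.25) did, and within gene bodies and 5 kb Myc (-0.064). The cause was not tested in these cases.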

Other observations

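Near En1 the untreated line differed from the line that received control siRNA. The stretch around En1 on chromosome 1 from 120596299 to 121085739 held 28, 28 and 22 kept summits in GNP, 1, 0 and 0 in siNC and 181, 236 and 150 in untreated VDR. The difference between untreated VDR and siNC was not tested.

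A few gained promoters were open in every siRNA-treated library and in no untreated VDR library. Ifit1 and Samd9l, which interferon induces, and Fgf7, a growth factor of epithelia, were open in 3 of 3 siNC, 3 of 3 siNfia and 3 of 3 siNfib libraries and in 0 of 3 untreated VDR libraries. The best summits at the Ifit1 promoter ranked 59352, 47483 and 29418 in siNC. These genes were chosen after their values were seen.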
